A study of Mus musculus with 2 samples.

Results

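The genes described here are 10 mouse genes of the mesenchymal transition, taken by symbol from a table of 22383 genes, in which all 10 were found. They are the transcription factor genes Prrx1, Twist1, Twist2, Snai1, Snai2, Zeb1 and Zeb2, the intermediate filament gene Vim, the adhesion gene Cdh2 and the actin gene Acta2. RNA was sequenced from a pair of stable derivatives of iHFSC2, an immortalized mouse line labelled as hair follicle stem cell. One derivative, shcircSmad5, carries a lentiviral hairpin that targets the circular RNA circSmad5 of the Smad5 gene, and its library is called the hairpin library below. The other carries the lentiviral empty vector, and its library is called the vector library. Both were under puromycin from day 4 after infection and were used as established lines at day 15. There was 1 library per group and no line with a control hairpin, so every value below describes these 2 libraries. Effects of the hairpin cannot be told apart from differences between lines selected separately, and no p-value can be given. The study asks what circSmad5 regulates in these cells.

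In a mesenchymal transition an epithelial cell loosens its junctions, changes its cadherins and filaments and gains the ability to migrate. Factors of the Snail, ZEB and Twist families bind E-boxes in DNA and repress epithelial genes, among them the E-cadherin gene Cdh1, and the homeobox factor Prrx1 acts in embryonic mesenchyme and in some transitions of cultured cells. Vimentin, N-cadherin and smooth muscle actin, the products of Vim, Cdh2 and Acta2, serve as markers of the mesenchymal or myofibroblast state. In skin, Snai2 is also a factor of the basal keratinocyte itself, where it acts on migration and wound repair, so it is not by itself a sign of a mesenchymal cell.

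For the members that pass the size rule given below, the DNA ahead of the gene is shown from RefSeq on GRCm38.p6. Of the 10 members 7 matched there, and Snai2, Cdh2 and Zeb1 did not. Prrx1 and Twist2 are shown because they were the members with the lowest ratios, and Acta2 because it had the highest ratio among the members with enough counts. Capitals mark a TAATTA core of homeodomain factors in Prrx1, a CCAAT box in Twist2, and CArG boxes in Acta2. A CArG box, the sequence bound by serum response factor, was searched with at most 1 G or C among its 6 central bases. Both strands were searched in the 250 bases before the RefSeq start. Each sequence is written 5′ to 3′ on the strand of its gene.
Prrx1, chr1:163313711-163313900, minus strand: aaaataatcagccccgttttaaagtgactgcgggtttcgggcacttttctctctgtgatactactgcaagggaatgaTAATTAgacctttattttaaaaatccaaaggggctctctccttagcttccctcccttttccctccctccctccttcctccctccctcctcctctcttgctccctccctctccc
Twist2, chr1:91801211-91801460, plus strand: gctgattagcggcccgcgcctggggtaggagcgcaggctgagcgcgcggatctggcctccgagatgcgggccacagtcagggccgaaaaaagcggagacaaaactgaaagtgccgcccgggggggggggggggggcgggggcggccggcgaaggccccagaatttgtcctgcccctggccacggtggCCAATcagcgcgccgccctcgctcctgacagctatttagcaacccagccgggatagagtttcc
Acta2, distal box, chr19:34255438-34255467, minus strand: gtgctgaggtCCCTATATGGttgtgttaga
Acta2, proximal box, chr19:34255388-34255417, minus strand: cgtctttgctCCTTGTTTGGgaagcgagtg

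The TAATTA of Prrx1 begins 173 bases before the RefSeq start, and 4.84% of the 32851 windows of the same length in the table hold that motif on either strand. The CCAAT of Twist2 begins 63 bases before its start, and 33.8% of windows hold one. CCAAT was also found ahead of Vim, Zeb2, Snai1 and Twist1, which did not pass the size rule. Both Acta2 boxes have 1 G or C in the centre, and they begin 84 and 34 bases before the RefSeq start. Such a box is present in 8.59% of windows, and a box with only A and T in the centre in 1.47%. The Acta2 boxes lie inside the first exon that GENCODE M21 draws, which begins 217 bases upstream of the RefSeq start, and the last 60 bases before the RefSeq start of Prrx1 are left out because GENCODE M21 counts them to its first exon. An E-box, CANNTG, is found in 66.2% of windows. It matched 3 times ahead of Acta2, outside the CArG boxes, and once ahead of Snai1, where it is the CACCTG form that Snail factors bind (in 17.2% of windows). These matches describe the letters in the window and not binding.

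The vector library held 39261010 gene counts and the hairpin library 38382081. Counts were scaled by TMM, a method that equalises the bulk of the genes, and each ratio is shcircSmad5 over empty vector with an exact 95% interval for counting error alone. The 13596 genes that reached 20 counts in either library are called measured here. Higher and lower stand for a size rule and not for a test: the gene is measured, its ratio is 2-fold or more, and the interval leaves out 1. Markers of the labelled cell type were read first. The basal keratin genes Krt5 (2394 and 2664 FPKM) and Krt14 (2361 and 3359 FPKM) were among the most abundant transcripts, where FPKM is the count per kilobase of exon, scaled to the library total. Of 13 keratinocyte and follicle stem cell markers in the table, 11 were measured, Krt15 was lower (3.27-fold) and none was higher. Cd34, a marker of the mouse bulge, was at 0 in both libraries, and Lhx2 had 4 and 5 counts.

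Only 5 of the 10 members were measured, and few reads were counted for several mesenchymal hallmarks. Vim, Zeb1, Zeb2, Twist1 and Snai1 had 17 counts or fewer in each library. The submitters' processing notes list the human build GRCh38 beside GRCm38 and give it no role, and whether the build or the counting set any of these low values was not tested. Snai2 alone made up 85.9% of the members' summed FPKM in the vector library and 73.5% in the hairpin library. Prrx1 and Twist2 were lower in the hairpin library, 3.88-fold and 3.54-fold. Acta2 was higher, by 2.00-fold. That is 1 member higher and 2 lower of 5 measured, while of all measured genes 14.7% passed the size rule, 8.43% as higher and 6.24% as lower. These shares are the background for the list counts above and below.

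**Figure D1:**
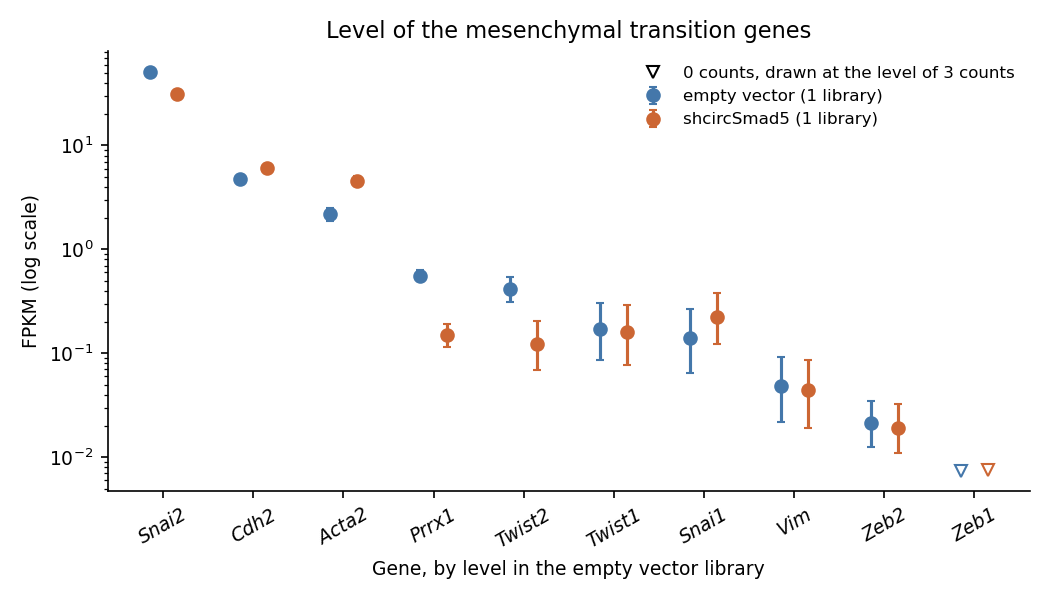
Level of each of the 10 genes in FPKM on a log axis, with 1 point per library and bars for the exact 95% Poisson interval of the count. Snai2 sits at 50.7 and 31.3 FPKM, above every other member, and Zeb1, at 0 in both libraries, is drawn as an open triangle at the level of 3 counts.

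Among the Snail factors, Snai2 was the abundant one. Snai2 (ENSMUSG00000022676, GRCm38 chromosome 16, 14705852 to 14709385, plus strand) had 4025 counts in the vector library and 2431 in the hairpin library, at 50.7 and 31.3 FPKM. It stood at percentile 96.0 of all genes by FPKM in the vector library and at 93.2 in the hairpin library. Its log2 ratio was -0.76 (-0.83 to -0.68), a 1.69-fold difference, which does not reach the 2-fold limit used for calls. Counted from the lowest ratio, it was at rank 1288 of the 13596 measured genes.

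Snai1 (ENSMUSG00000042821, chromosome 2, 167538195 to 167542814), which encodes the other Snail factor of classical transitions, had 9 counts in the vector library and 14 in the hairpin library. Its FPKM of 0.141 and 0.225 put Snai2 359-fold above it in the vector library (189 to 785) and 139-fold in the hairpin library (82.8 to 255). At this depth no difference in Snai1 was detectable, with a log2 ratio of 0.61 and an interval from -0.70 to 2.00. The remaining family member, Snai3, had 0 and 11 counts.

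The Twist factors were both rare, and Twist2 was lower in the hairpin library. Twist2 (ENSMUSG00000007805, chromosome 1, 91801461 to 91848028), a basic helix-loop-helix factor of dermal precursors, had 52 counts in the vector library and 15 in the hairpin library, or 0.417 and 0.123 FPKM. Its log2 ratio was -1.82 (-2.76 to -0.97). In GENCODE M21, 46.5% of its exonic bases lie under Gm29100, a gene on the opposite strand. Gm29100 had 6 and 7 counts. The count of Twist2 is uncertain to that extent, since the strand setting of the counting is not given in the sources used here.

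Twist1 (ENSMUSG00000035799, chromosome 12, 33957671 to 33959829), a factor of cranial mesenchyme, had 11 and 10 counts and a log2 ratio of -0.17 (-1.56 to 1.21). Per length, Twist2 was 2.42-fold above Twist1 in the vector library (1.25 to 5.15). In the hairpin library the same ratio was 0.769 (0.323 to 1.92), so no order of the pair could be read there. The intervals of the 2 log2 ratios overlap.

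Twist factors bind DNA as dimers with E-proteins and are held back by Id proteins. Of 7 such genes, 6 were measured and none was higher or lower by the size rule, with a median log2 ratio of -0.16. Of protein-coding genes with more than 500 counts in the larger library 4.44% passed, and all 6 had that depth. The most abundant, Id1, had 147 and 129 FPKM, and the E-protein gene Tcf12 had 8.59 and 8.83 FPKM. Both were well above the Twist genes per length, of which the highest value was 0.417 FPKM.

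The homeobox gene Prrx1 had the lowest ratio of the members. Prrx1 (ENSMUSG00000026586, chromosome 1, 163245119 to 163313710, minus strand) had 243 counts in the vector library and 64 in the hairpin library, or 0.559 and 0.151 FPKM. The log2 ratio was -1.95 (-2.38 to -1.55), at rank 302 from the lowest of the measured genes. Its paralog Prrx2, which overlaps with Prrx1 in limb and face development, had 263 and 259 counts and a log2 ratio of -0.05 (-0.31 to 0.20). Prrx1 was at 0.164 of the FPKM of Prrx2 in the vector library (0.137 to 0.196) and at 0.0438 in the hairpin library (0.0328 to 0.0578). The intervals of the paralogs' log2 ratios do not overlap.

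The ZEB factors, zinc finger repressors that shut off epithelial genes at the end of a transition, were near or below the limit of detection. Zeb1 (ENSMUSG00000024238, chromosome 18, 5591860 to 5775467) had 0 counts in both libraries. The limit of 3 counts that a count of 0 allows is 0.00744 FPKM in the vector library and 0.00761 in the hairpin library, and the exact 95% Poisson interval ends at 0.00915 and 0.00936 FPKM. The nearest measured genes on its sides, taken by position, had counts in both libraries: Zfp438 had 370 and 345, and Arhgap12 had 3134 and 2829. Zeb2 (ENSMUSG00000026872, chromosome 2, 44983632 to 45117395, minus strand) had 17 and 15 counts, 0.0214 and 0.0193 FPKM, with a log2 ratio of -0.21 (-1.32 to 0.88). Its interval in the vector library starts at 0.0126 FPKM, above the end of the interval for Zeb1.

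Snail, Twist and ZEB factors repress through shared corepressors, and all of those looked at were expressed. Of 15 corepressor genes in the table, 15 were measured and none was higher or lower, with a median log2 ratio of -0.02. Of protein-coding genes with more than 500 counts in the larger library 4.44% passed the size rule, and all 15 had that depth. The chromatin remodeller gene Smarca4 had 47.2 and 51.9 FPKM, and Ctbp1, whose product binds ZEB proteins, had 54.7 and 50.2 FPKM. Of 21 genes for the ligases, deubiquitinases and kinases that set the stability of these factors, 20 were measured. The protein kinase D1 gene Prkd1 was higher, with 64 and 143 counts (2.19-fold), and none was lower. The median of that list was -0.17.

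The filament gene Vim had few counts beside the keratins. Vim (ENSMUSG00000026728, chromosome 2, 13573927 to 13582826) had 9 counts in the vector library and 8 in the hairpin library, or 0.0483 and 0.0439 FPKM. Krt5 was 49543-fold above it per length in the vector library, with an interval from 26098 to 108348. In the hairpin library Krt5 was 60630.0-fold above it, from 30770 to 140437. The log2 ratio of Vim was -0.20 with an interval from -1.77 to 1.35, so a difference was not detectable at this depth. None of the 50-base windows of the Vim transcripts occurs in a transcript of another gene of GENCODE M21.

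Relatives and partners of vimentin were read beside the 14.7% of all measured genes that passed the size rule. The neural and progenitor filament gene Nes had 95 and 24 counts, a 4.04-fold lower level in the hairpin library (2.56 to 6.62). Des, Gfap, Prph and Synm had at most 13 counts in each library. Of 15 genes for vimentin linkers, lamins and keratins, 14 were measured. The wound keratin gene Krt17 and the bulge keratin gene Krt15 were lower (89.4-fold and 3.27-fold), the simple-epithelium keratin gene Krt8 was higher (2.85-fold), and the list's median log2 ratio was 0.07.

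N-cadherin RNA was present at a moderate level and differed by less than 2-fold between the libraries. Cdh2 (ENSMUSG00000024304, chromosome 18, 16588877 to 16809246, minus strand) had 1512 counts in the vector library and 1862 in the hairpin library, or 4.77 and 6.01 FPKM. Its log2 ratio was 0.27 (0.17 to 0.37), 1.21-fold, within the 2-fold limit. The epithelial cadherin gene Cdh1 had 105 and 96.9 FPKM and the P-cadherin gene Cdh3 70.6 and 64.4 FPKM.

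Both of these cadherins were far above Cdh2 per length in each library, and by less in the hairpin library. Cdh1 was 21.9-fold above Cdh2 in the vector library (20.8 to 23.1) and 16.1-fold in the hairpin library (15.4 to 16.9). For Cdh3 the values were 14.8-fold (14.0 to 15.6) and 10.7-fold (10.2 to 11.3). Those intervals do not overlap between the libraries, but the spread between cultures was not measured. Of 12 catenin, nectin and cadherin partner genes, 10 were measured and none was higher or lower, with a median log2 ratio of 0.02. Of protein-coding genes with more than 500 counts in the larger library 4.44% passed the size rule, and all 10 had that depth. The catenin genes Jup and Ctnna1 had log2 ratios of 0.02 and 0.10.

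Acta2 was the only member that was higher by the size rule, and it sat on the limit itself. Acta2 (ENSMUSG00000035783, chromosome 19, 34241090 to 34255590, minus strand) had 189 counts in the vector library and 386 in the hairpin library, or 2.19 and 4.58 FPKM. Its log2 ratio was 1.00, with an interval from 0.75 to 1.26. When every chromosome's median was set to 0 the ratio was 1.81-fold, and with a prior count of 2 it was 1.99-fold, and the call ended under both. Only 0.326% of the 50-base windows of its transcripts occur in transcripts of other genes. The cytoplasmic actin gene Actb was 1086-fold above Acta2 in the vector library (942 to 1260) and 471-fold in the hairpin library (426 to 522).

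Several classical smooth muscle genes had too few counts for a call. Of 21 smooth muscle and serum response factor genes in the table, 15 were measured and none was higher or lower, with a median log2 ratio of 0.01. Of protein-coding genes with more than 500 counts in the larger library 4.44% passed the size rule, and all 15 had that depth. The 2 most abundant, the filamin gene Flna and the myosin gene Myh9, had log2 ratios of -0.73 and 0.44. Those below the count minimum could not be called whatever their ratios: Tagln had 5 and 14 counts, Myh11 had 8 and 6, Cnn1 had 1 and 0 and Des had 1 and 2. The skeletal actin gene Acta1 had 4 and 18 counts, a 4.41-fold ratio with an interval from 1.45 to 17.9, and with a minimum of 5 counts 1 gene of the list was higher. Tagln, Myh11, Cnn1 and Acta1 are named after their values were seen.

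**Figure D2:**
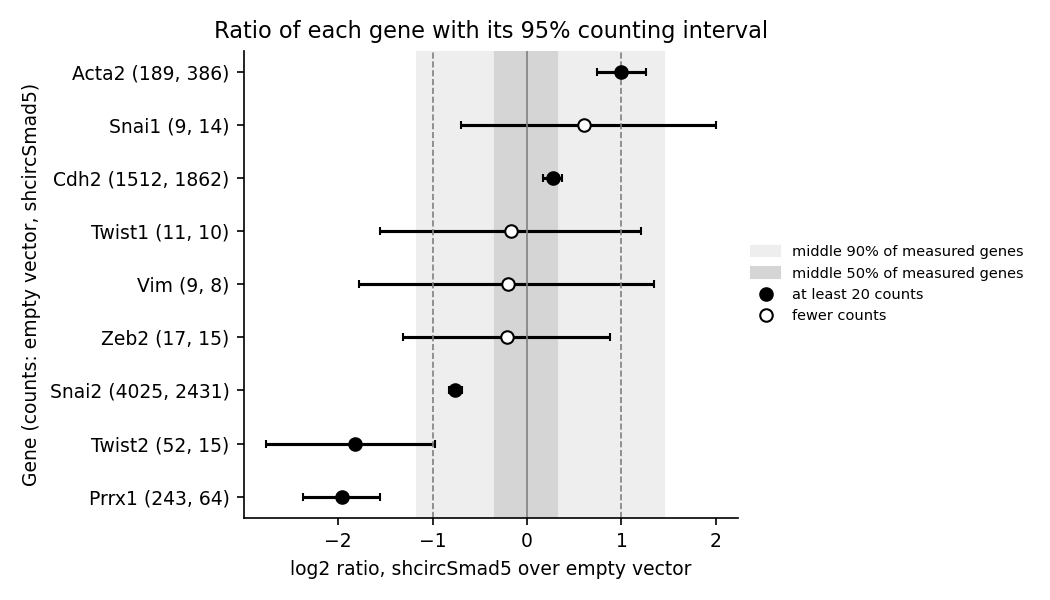
Log2 ratio of shcircSmad5 over empty vector for the 9 members above 0, with bars for the 95% counting interval, filled points for genes with at least 20 counts and dashed lines at 2-fold. Prrx1 and Twist2 lie below the grey band that holds the middle 90% of measured genes, and the intervals of Twist1, Snai1, Vim and Zeb2 all cross 0.

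In the order of levels, Snai2, Cdh2 and Acta2 led in both libraries. In the vector library these 3 and Prrx1 followed each other with intervals that do not overlap, and Twist2 stood apart from Twist1 below it. Prrx1 and Twist2, Twist1 and Snai1, Snai1 and Vim, and Vim and Zeb2 were neighbours whose intervals overlap. In the hairpin library the leading 3 again had separate intervals, and Snai1, Twist1, Prrx1 and Twist2 came next at 0.225, 0.160, 0.151 and 0.123 FPKM. Each of those 4 overlapped with its neighbour in the order, so no order can be given among them.

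The background share of 14.7% depends on depth. Of the protein-coding genes with at most 500 counts in the larger library, a limit chosen after the values were seen, 28.1% passed (13.3% higher and 14.8% lower), and of those with more counts 4.44% passed. All 3 members called have at most 386 counts and belong to the first set, and neither Snai2 nor Cdh2, which belong to the second, was called. The median log2 ratio of the 5 measured members was -0.76, which is the value of Snai2, with 2 ratios above 0 and 3 below. For all measured genes the median was -0.02, and over the 9 members with counts above 0 it was -0.20.

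**Figure D3:**
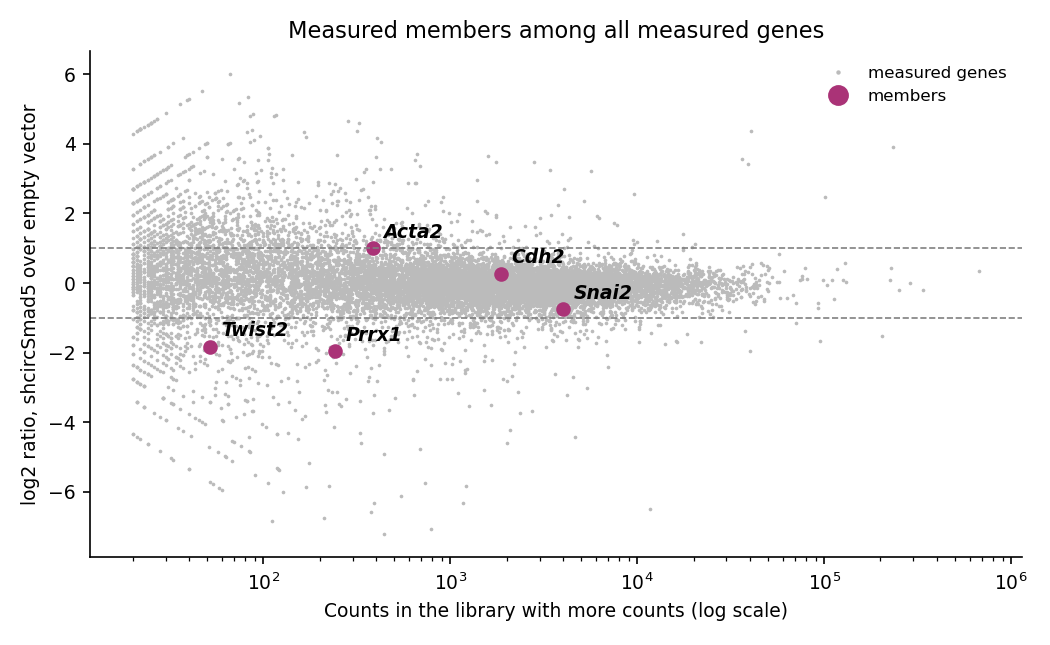
Log2 ratio of every measured gene (grey) against its counts in the library with more counts, on a log axis, with the 5 measured members in colour and dashed lines at 2-fold. The spread of the grey points widens toward low counts, where Twist2, Prrx1 and Acta2 lie, and Snai2 lies at the lower edge of the narrow part.

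The position of the members on the chromosomes was compared with the ratios of the 5 measured genes on each side. Prrx1 at -1.95 lay below all of its 10 neighbours, which ran from -0.74 to 1.09 with a median of -0.03. Twist2 at -1.82 lay below all 10 of its own, from -0.67 to 1.16 with a median of -0.20. Prrx1 and Twist2 are both on chromosome 1, whose measured genes had a median of 0.02. Snai2 at -0.76 was below all 10 neighbours as well, which ran from -0.48 to 0.88. Cdh2 and Acta2 lay within the range of theirs, from -1.41 to 0.48 and from -3.07 to 4.84. The widest range, that around Acta2, is set by the lipase gene Lipm (222 and 27 counts) and the interferon-induced gene Ifit1 (4 and 117 counts), both named after their values were seen.

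**Figure D4:**
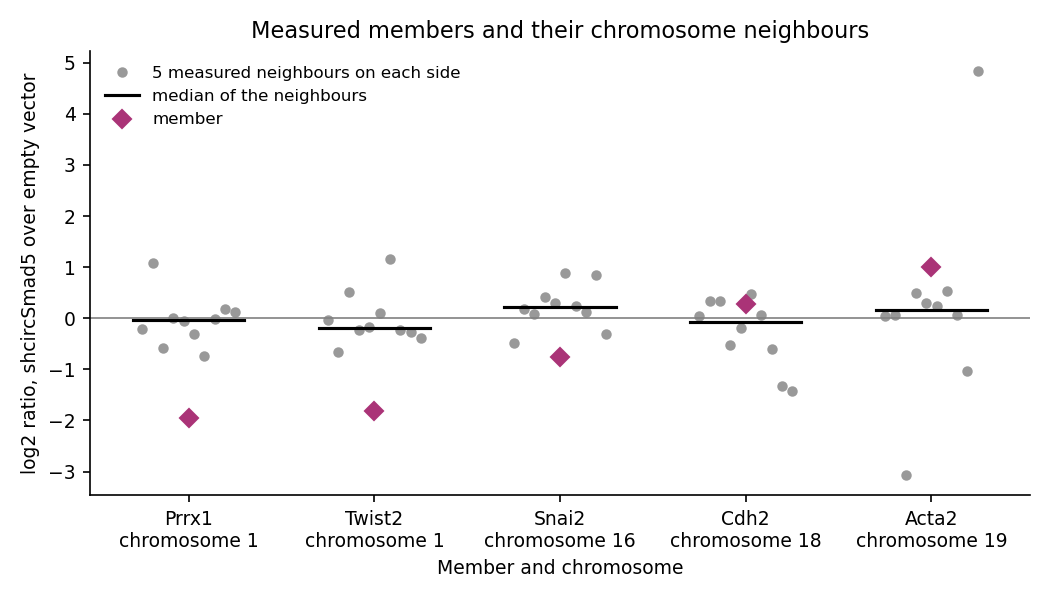
Log2 ratio of each measured member (diamond) and of the 5 measured genes on each side of it (grey points, in chromosome order), with a bar at the neighbours' median. The diamonds of Prrx1, Twist2 and Snai2 lie below all 10 neighbours, and those of Cdh2 and Acta2 lie among them.

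Genes of the epithelial state were looked at as a list. Of 32 genes of the epithelial state, all in the table, 30 were measured, 1 was higher and 1 was lower, with a median log2 ratio of -0.05 and with 15 above 0 and 15 below. The share called among all measured genes was 14.7%, and among protein-coding genes with more than 500 counts 4.44%. Among those with at most 500 counts, the set that holds both epithelial genes called, it was 28.1%. The higher one was the junction gene Tjp3 (22 and 49 counts, 2.18-fold) and the lower one the tight junction gene Marveld3 (85 and 3 counts, 28.9-fold with an interval from 9.57 to 143).

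Among 34 other mesenchymal and matrix genes in the table, 17 were measured, 7 were lower and none was higher. The background was 6.24% lower and 8.43% higher, and the list's median log2 ratio was -0.88. The matricellular gene Ccn2 (3.86-fold), the tenascin gene Tnc (6.14-fold) and the fibronectin gene Fn1 (9.22-fold) were the lower members with the most counts. Fn1 had 641 counts in the vector library and 71 in the hairpin library. Ccn2, Tnc and Fn1 had more than 500 counts in the larger library, and of protein-coding genes of that depth 4.44% passed the size rule. The other lower genes of the list had at most 500, and of protein-coding genes of that depth 14.8% were lower. The list was assembled with earlier results of these data known, so its direction is not independent evidence.

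Of 33 genes for signals and factors upstream of a transition, 28 were measured, 4 were lower and 1 was higher, with a median log2 ratio of -0.16. Of all measured genes 6.24% were lower and 8.43% higher. The forkhead gene Foxq1 (2.37-fold), the growth factor receptor gene Fgfr1 (1173 and 15 counts, 79.8-fold) and the ligand gene Wnt3a (2.36-fold) were the lower ones with the most counts. Of protein-coding genes with at most 500 counts in the larger library, the set of Wnt3a and Nes, 14.8% were lower and 13.3% higher. Of those with more counts, the set of Foxq1 and Fgfr1, 4.44% passed the size rule. Among 16 paralogs of the members, 6 were measured, 1 was lower, Nes, and none was higher, with a median of -0.19.

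**Figure D5:**
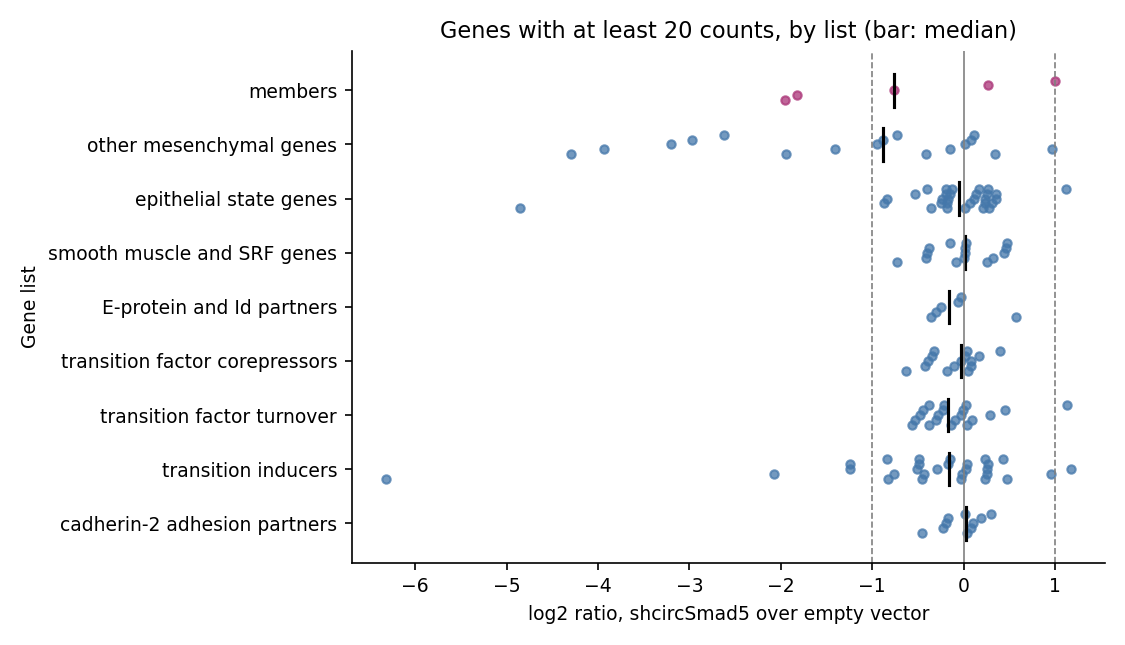
Log2 ratio of every gene with at least 20 counts in the members and in 8 other lists, 1 point per gene, with a bar at the median and dashed lines at 2-fold. The members and the other mesenchymal genes have medians of -0.76 and -0.88, and the other 7 lists have medians between -0.17 and 0.02. The members' median is the value of Snai2, which was not called, with 2 members above 0 and 3 below.

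Markers of other skin cells were read beside these values. Of 12 fibroblast markers in the table, Pdgfra and Twist2, itself a member, were measured and both were lower, by 2.65-fold and 3.54-fold. The list summed to 0.913 FPKM in the vector library and 0.337 in the hairpin library, and the defining genes Col1a1, Dcn, Lum and Dpt were at 0 in both. Fewer cells of a type and less RNA per cell cannot be told apart in such bulk libraries. Of 6 smooth muscle and pericyte markers, 2 were measured and Itga8 was lower (7.01-fold), with sums of 7.30 and 11.4 FPKM, of which Notch3 made up 5.99 and 11.2 FPKM. Of 10 endothelial, immune, melanocyte and glial markers, 6 were measured and 3 were lower, among them the endothelial genes Pecam1 (81 and 27 counts) and Kdr (33 and 4 counts), while Cdh5 and Lyz2 were at 0 in both libraries. Their sums were 9.34 and 7.02 FPKM. Of all measured genes 6.24% were lower. Of protein-coding genes with at most 500 counts, the set of Pdgfra, Twist2, Pecam1 and Kdr, 14.8% were lower. The part of these markers in the ratios of the members was not tested.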

How the data were processed

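The deposited table holds read counts, whole and not normalized, beside FPKM values for each library, per the file headers. The submitters' processing notes name HISAT2, HTSeq 0.13.5, GRCm38 and GRCh38 without a role for each. How strand and multiple matches were handled is not given in the sources used here. Deposited FPKM equalled the count divided by its library total and by the GENCODE M21 exon length, within 0.001 of the value, for 98.4% of genes above 0 in either library.

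TMM scaling was done in edgeR 4.0.16 under R 4.3.3. Ratios carry an exact Clopper-Pearson 95% interval, taken from how a gene's counts divide between the libraries, and levels an exact Poisson interval (scipy 1.17.1). The reads carry no molecular identifiers and are not independent molecules, so the intervals and the limit of 3 counts cover counting error only. With 1 library per group no test across samples was made. Coordinates and exons came from GENCODE M21 by gene ID (22319 of 22383 IDs found) and upstream sequences from RefSeq. The members and all 14 other lists were chosen with earlier results of these data known. Named are all members and, from each other list, the most abundant genes by count, up to 3 among those past the size rule or 2 where none passed, with paralogs of a member where it is described. The values of 1 gene so chosen are not reported here. The scaling was varied (total counts, size factors of DESeq2 1.42.0, upper quartile, centring by chromosome), as were the pseudocount, the count minimum, the fold limit and the biotypes counted.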

Additional observations from a re-analysis of the deposited data

How the results depend on the processing

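No paired analysis was possible because each group had 1 library, and no replicate could be left out. The direction of each of the 9 members above 0 was kept under all 6 other scalings and pseudocounts, and the cause of the shifts below was not tested. The log2 ratio of Prrx1 was -1.40 as log2(FPKM + 0.1), which understates low genes, and that of Twist2 was -1.21, against -1.82 in the main setting. The log2 ratio of Snai2 was -0.86 with each chromosome centred. The number of higher members was 0 with each chromosome centred, with a prior count of 2 and with a 3-fold limit; Prrx1 and Twist2 remained lower under every setting tried, joined by Snai2 under a 1.5-fold limit, which made 3. Over all genes, 1146 were higher and 848 lower in the main setting, and 688 and 603 with a minimum of 50 counts. Among protein-coding genes alone, the biotype of all members, 535 were higher and 740 lower, so lower calls were the more frequent there. A 1.5-fold limit gave 1892 higher and 1753 lower, and a 3-fold limit 591 and 422.

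Counts in the lists moved as follows. Minimums of 5 counts or none gave 2 higher paralogs, 2 lower epithelial genes and 1 higher smooth muscle gene, and a minimum of 50 gave 0 higher epithelial genes and 1 lower marker of other skin cells. A 1.5-fold limit gave 3 lower epithelial genes, 1 lower smooth muscle gene, 1 lower corepressor, 2 higher and 7 lower inducers, 2 higher vimentin partners, 1 higher pericyte marker and 2 lower keratinocyte markers. A 3-fold limit gave 0 higher epithelial, turnover, inducer and vimentin partner genes, 2 lower inducers and 1 lower fibroblast marker. With log2(FPKM + 0.1) there were 0 higher epithelial genes, 4 lower mesenchymal genes, 1 lower fibroblast marker and 1 lower marker of other skin cells. Centring gave 1 higher mesenchymal gene and 1 higher pericyte marker, and total counts and upper quartile scaling each gave 2 higher inducers. Depth limits Twist1, Snai1, Vim and Zeb2 to intervals that span more than 2-fold in width, and Zeb1 to an upper limit.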

Other observations

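Krt18, the usual partner of Krt8 in the filaments of simple epithelia, had 0 counts in both libraries, while Krt8 had 493 counts with the empty vector and 1437 with the hairpin. Of the 50-base windows of the Krt18 transcripts, 0.720% occur in transcripts of other genes in GENCODE M21. Of the Krt8 windows 29.7% do, shared with 2 genes, and what this did to the Krt8 counts was not tested. Krt18 was singled out after its values were seen.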
